A study of Mus musculus with 6 samples.

Results

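RNase P RNA, RNase MRP RNA and vault RNA are short structured RNAs that work inside ribonucleoprotein particles. They were followed here in mouse heart through the gene symbols Rpph1, Rmrp and Vaultrc5, 3 of the 24421 symbols measured. The 3 were chosen by symbol, and selected on their levels across Cnot3 RIP, control IgG RIP and Input in these data, so their levels and differences are given as a description with no test. All 3 passed the filter on low values, as did 13010 symbols in all.

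RNA was sequenced from whole hearts of C57BL6/J mice aged 4 weeks, in 6 libraries. RNA immunoprecipitation (RIP) recovers the RNA that comes down with an antibody, and 2 libraries used an anti-Cnot3 antibody (Cnot3 RIP), 2 used control IgG (control IgG RIP) and 2 held heart RNA without precipitation (Input). CCR4-NOT, the complex that Cnot3 belongs to, removes poly(A) tails from mRNAs. The labels name no genetic change or treatment, all groups share strain, age and tissue, and nothing in them says whether the 2 libraries of a group came from separate animals or how many hearts went into each. The comparisons address which RNAs were recovered with Cnot3 beyond a control antibody and beyond the starting lysate. The lysate holds all cell types of the heart, and 6 cardiomyocyte markers fixed for this purpose were present in every library, between 289 and 23525 scaled CPM.

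Rpph1 is the RNA subunit of RNase P, the ribozyme that removes the leader from tRNA precursors in the nucleus. Rmrp is the RNA of the related RNase MRP, which cuts the precursor of ribosomal RNA in the nucleolus and shares most of its protein subunits with RNase P. Vaultrc5 is a mouse vault RNA, a component of the cytoplasmic vault particle, whose shell is made of the major vault protein. All of them are made by RNA polymerase III and carry no poly(A) tail, the part of an RNA on which CCR4-NOT is known to act.

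The RNAs of RNase P and RNase MRP are shown because both carry, once each, the pattern GGAANGTC, printed in capitals, which lies in a stretch known to be conserved between the RNAs of both enzymes. The pattern stood at bases 60 to 67 of Rpph1 and at bases 67 to 74 of Rmrp, counted from the first base of the RNA. Searched on the RNA strand, it was in 1.816% of the 7818 annotated transcripts of 143 to 345 bases, and Vaultrc5 had no match. The RNA sequences are those of GENCODE M21 on GRCm38, on the minus strand, at chr14:50807468-50807767 (the first 300 of the 319 bases of Rpph1) and chr4:43492788-43493058 (all 271 bases of Rmrp).
Rpph1 RNA: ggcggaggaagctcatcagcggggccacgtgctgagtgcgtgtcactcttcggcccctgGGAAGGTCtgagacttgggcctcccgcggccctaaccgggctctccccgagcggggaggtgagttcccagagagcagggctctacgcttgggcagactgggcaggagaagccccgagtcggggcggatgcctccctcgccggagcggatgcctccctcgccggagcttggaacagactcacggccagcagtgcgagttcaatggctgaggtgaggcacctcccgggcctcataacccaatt
Rmrp RNA: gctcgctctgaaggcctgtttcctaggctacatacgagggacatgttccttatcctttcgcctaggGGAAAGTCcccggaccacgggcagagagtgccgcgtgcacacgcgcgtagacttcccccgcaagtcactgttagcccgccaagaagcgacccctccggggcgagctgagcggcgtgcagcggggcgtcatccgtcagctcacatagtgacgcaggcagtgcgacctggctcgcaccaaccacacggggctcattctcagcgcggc

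In human cells the genes of both RNAs are known to have external promoters with an octamer, the site bound by factors such as Pou2f1. The windows below are printed because each holds 1 octamer (ATGCAAAT, or ATTTGCAT on the other strand), shown in capitals and written along the strand of the RNA. It lay 93 bases before the start of Rpph1 and 216 bases before the start of Rmrp. Of 32851 promoter windows of 300 bases, 570 held an octamer on either strand, which is 1.735%. The windows come from the RefSeq promoters (GRCm38.p6) of the neighbouring genes Parp2 and Ccdc107, at chr14:50807844-50807883 and chr4:43493258-43493297, read on the minus strand. A match of letters is a description and not a measured binding site.
upstream of Rpph1: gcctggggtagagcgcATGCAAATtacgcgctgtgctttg
upstream of Rmrp: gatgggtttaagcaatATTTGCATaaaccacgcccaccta

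The RNAs were rich in G and C, with 67.1% in Rpph1, 64.2% in Rmrp and 53.8% in Vaultrc5. The pentamer ATTTA, the core of AU-rich elements, had no match in any of the 3 RNAs, and it was in 15.96% of the transcripts of 143 to 345 bases. The longest run of bases that Rpph1 and Rmrp shared was 9 bases long.

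The Cnot3 RIP libraries held 19176056 and 25567544 reads, those of control IgG RIP 18032715 and 17283203, and those of Input 15713318 and 33479580. Reads counted under the ribosomal RNA symbol Rn45s made up 53.1% and 51.1% in the Cnot3 RIP and 60.2% and 59.4% in the control IgG RIP. In Input they made up 78.3% and 79.2%. Levels are therefore given as scaled CPM, which are the deposited CPM (reads of a gene per 1000000 reads) divided by TMM factors. These factors set most genes level between libraries. Differences are log2 differences of scaled CPM plus 0.25, with the standard error (SE) from limma, and they understate the changes of low genes.

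All 3 RNAs were most abundant in Input and low in both precipitates. Rpph1, the RNase P RNA, had 31.4 and 46.4 scaled CPM in the Cnot3 RIP libraries, 78.7 and 26.1 in the control IgG RIP and 442 and 519 in Input. Every precipitate library lay far below both Input libraries, while the control IgG RIP libraries lay on either side of the Cnot3 RIP libraries. Behind these levels were 881 and 1547 reads in the Cnot3 RIP, 1365 and 577 in the control IgG RIP and 4788 and 10751 in Input. Rpph1 was 12.5-fold lower in the Cnot3 RIP than in Input, a log2 difference of −3.64 (SE 0.44). It was 10.5-fold lower in the control IgG RIP than in Input, a log2 difference of −3.39 (SE 0.44).

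Rmrp, the RNase MRP RNA, had 48.1 and 42.4 scaled CPM in the Cnot3 RIP, 67.2 and 55.8 in the control IgG RIP and 258 and 218 in Input. Its replicates were the closest of the 3 in both precipitates. In scaled CPM the groups followed one another with no overlap, Cnot3 RIP lowest and Input highest. In the deposited CPM the 2 precipitates overlapped. The reads were 1351 and 1416 in the Cnot3 RIP, 1166 and 1231 in the control IgG RIP and 2793 and 4509 in Input. Rmrp was 5.22-fold lower in the Cnot3 RIP than in Input, a log2 difference of −2.38 (SE 0.23), and 3.86-fold lower in the control IgG RIP than in Input, a log2 difference of −1.95 (SE 0.23).

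Vaultrc5, the vault RNA, was the scarcest, with 3.67 and 4.98 scaled CPM in the Cnot3 RIP, 10.5 and 3.85 in the control IgG RIP and 32.0 and 25.6 in Input. Both precipitates lay below Input, and the lower control IgG RIP library fell between the Cnot3 RIP libraries. These levels rested on 103 and 166 reads in the Cnot3 RIP, 182 and 85 in the control IgG RIP and 347 and 530 in Input, the fewest of the 3. Vaultrc5 was 6.38-fold lower in the Cnot3 RIP than in Input, a log2 difference of −2.67 (SE 0.41), and 4.35-fold lower in the control IgG RIP than in Input, a log2 difference of −2.12 (SE 0.41).

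**Figure D1:**
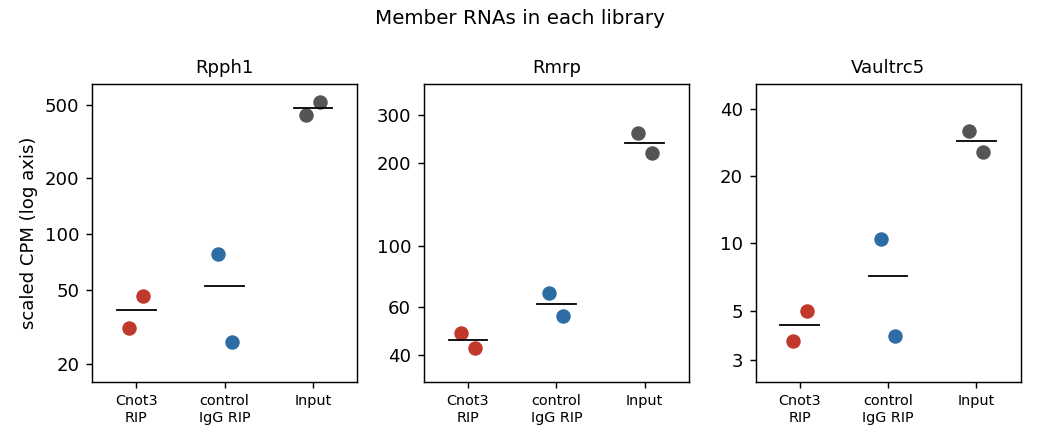
Level of Rpph1, Rmrp and Vaultrc5 (scaled CPM, log axis) in each of the 6 libraries, with 1 point per library and a line at the mean of the 2 libraries of a group. The Input libraries lie above all precipitate libraries in each panel, and the control IgG RIP libraries of Rpph1 (78.7 and 26.1) and Vaultrc5 (10.5 and 3.85) lie far apart.

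In both comparisons with Input the groups did not overlap for any of the 3 RNAs. The share of all genes without overlap was not counted, so this separation is not set against a background. Calls by limma, given next, are a different measure. Over all genes, limma called 8.32% of 13010 different between Cnot3 RIP and Input, and 2.47% lower (321 genes), taking Benjamini-Hochberg adjusted p-values under 0.05. Between control IgG RIP and Input it called 4.07% different, and 1.49% lower (194 genes). The median log2 difference of all genes was 0.06 and 0.01 in these comparisons. Counted from the lowest log2 difference, Rpph1 ranked 1, Vaultrc5 ranked 3 and Rmrp ranked 4 of 13010 genes in Cnot3 RIP over Input. For control IgG RIP over Input the ranks were 1 for Rpph1, 3 for Vaultrc5 and 5 for Rmrp. Without control IgG RIP replicate 2 the ranks in control IgG RIP over Input were 1 for Rpph1, 20 for Rmrp and 118 for Vaultrc5. These ranks use the values by which the RNAs were chosen, and both comparisons use the same Input libraries. Both comparisons set a precipitate against lysate of whole hearts, so they do not measure levels per cell or numbers of cells of a type.

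Against control IgG RIP all 3 RNAs had negative log2 differences smaller than those from Input. The log2 difference of Cnot3 RIP over control IgG RIP was −0.25 (SE 0.44) for Rpph1, −0.44 (SE 0.23) for Rmrp and −0.55 (SE 0.41) for Vaultrc5, where the median of all genes was −0.00. In scaled CPM the groups did not overlap for Rmrp and overlapped for Rpph1 and Vaultrc5. Here too the share of all genes without overlap was not counted. The separation of Rmrp depended on the scaling. In the deposited CPM the groups overlapped, at 70.5 and 55.4 in the Cnot3 RIP and 64.7 and 71.2 in the control IgG RIP. Relative to Rn45s reads, the mean of Rmrp was 1.06-fold higher in the Cnot3 RIP than in the control IgG RIP. By limma, a different measure, 1.81% of the 13010 genes were called different in this comparison, 0.277% lower. Of all genes, 25.6% had a lower log2 difference than Rpph1, 14.6% a lower one than Rmrp and 10.7% a lower one than Vaultrc5. A single library decided the sign for 2 of them. Without control IgG RIP replicate 1 the log2 difference was 0.51 for Rpph1 and 0.11 for Vaultrc5, and without control IgG RIP replicate 2 it was −1.04 for Rpph1 and −1.24 for Vaultrc5. Without Cnot3 RIP replicate 1 that of Rpph1 was 0.04.

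**Figure D2:**
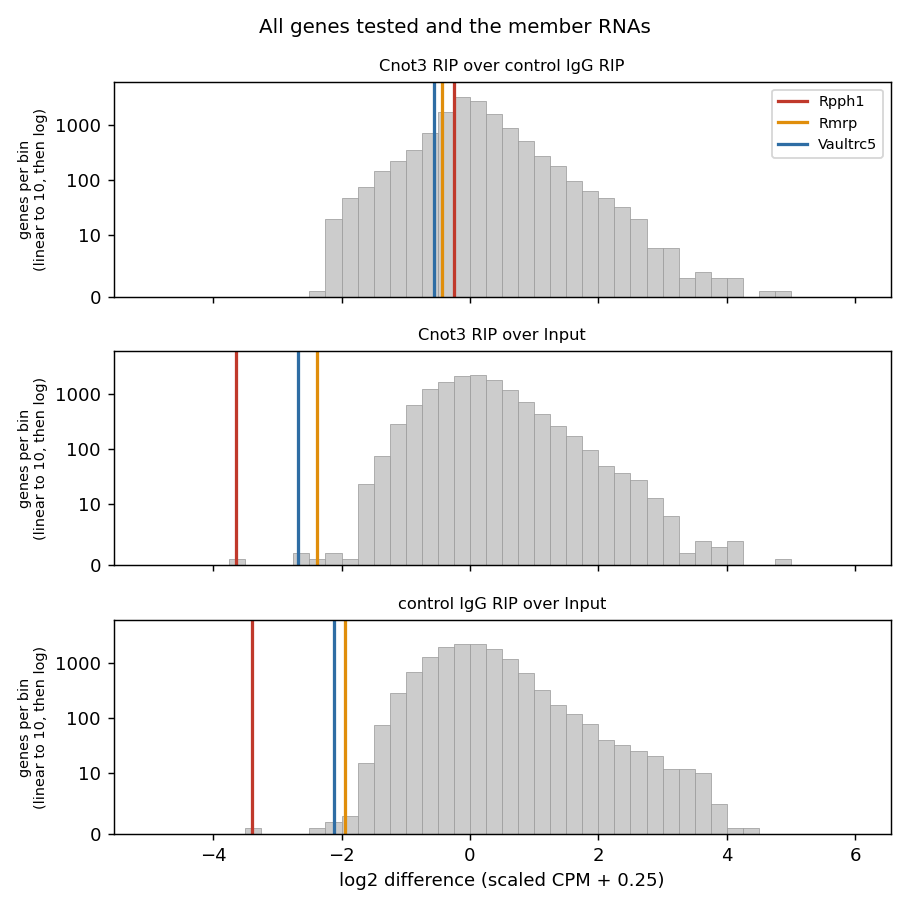
Number of genes (vertical axis, linear up to 10 and logarithmic above) by log2 difference of scaled CPM plus 0.25 (horizontal axis) for the 13010 genes tested in each comparison, with vertical lines at Rpph1, Rmrp and Vaultrc5. The lines lie within the bulk of genes against control IgG RIP, at −0.25, −0.44 and −0.55, and at the lower end against Input, where Rpph1 is at −3.64 in the Cnot3 RIP and at −3.39 in the control IgG RIP.

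The replicates of control IgG RIP were the least even. The higher library held 3.01 times the scaled CPM of the lower for Rpph1 and 2.73 times for Vaultrc5, both with replicate 1 higher, but 1.21 times for Rmrp. In the Cnot3 RIP these ratios were 1.48 for Rpph1, 1.36 for Vaultrc5 and 1.13 for Rmrp, and in Input they lay between 1.17 and 1.25. The size of the difference from Input moved with these libraries. Without control IgG RIP replicate 1 the log2 difference of control IgG RIP over Input was −4.20 for Rpph1 and −2.84 for Vaultrc5, and without replicate 2 it was −2.60 for Rpph1 and −1.43 for Vaultrc5.

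Since Rn45s took more of the reads in Input, the RNAs were also set against it within each library, a ratio that needs no scaling. Per 1000000 Rn45s reads, Rpph1 had 86.6 and 118 reads in the Cnot3 RIP, 126 and 56.2 in the control IgG RIP and 389 and 405 in Input. Rmrp had 133 and 108 in the Cnot3 RIP, 107 and 120 in the control IgG RIP and 227 and 170 in Input. Vaultrc5 had 10.1 and 12.7 in the Cnot3 RIP, 16.8 and 8.28 in the control IgG RIP and 28.2 and 19.98 in Input. All precipitate libraries again lay below both Input libraries for each RNA. The mean ratio was 3.88-fold lower in the Cnot3 RIP than in Input for Rpph1, 1.65-fold lower for Rmrp and 2.11-fold lower for Vaultrc5. It was 4.37-fold lower in the control IgG RIP than in Input for Rpph1, 1.75-fold for Rmrp and 1.92-fold for Vaultrc5. The differences from Input were thus smaller relative to Rn45s than in scaled CPM, with Rpph1 keeping the largest.

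The 3 RNAs did not keep one proportion to each other. There were 0.652 and 1.09 reads of Rpph1 per read of Rmrp in the Cnot3 RIP, 1.17 and 0.469 in the control IgG RIP and 1.71 and 2.38 in Input. Rpph1 was thus the more frequent of the pair in both Input libraries. Per read of Vaultrc5 there were 8.55 and 9.32 reads of Rpph1 in the Cnot3 RIP, 7.50 and 6.79 in the control IgG RIP and 13.8 and 20.3 in Input, again without overlap between Input and the precipitates. Reads of Rmrp per read of Vaultrc5 overlapped between the groups, at 13.1 and 8.53 in the Cnot3 RIP, 6.41 and 14.5 in the control IgG RIP and 8.05 and 8.51 in Input.

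**Figure D3:**
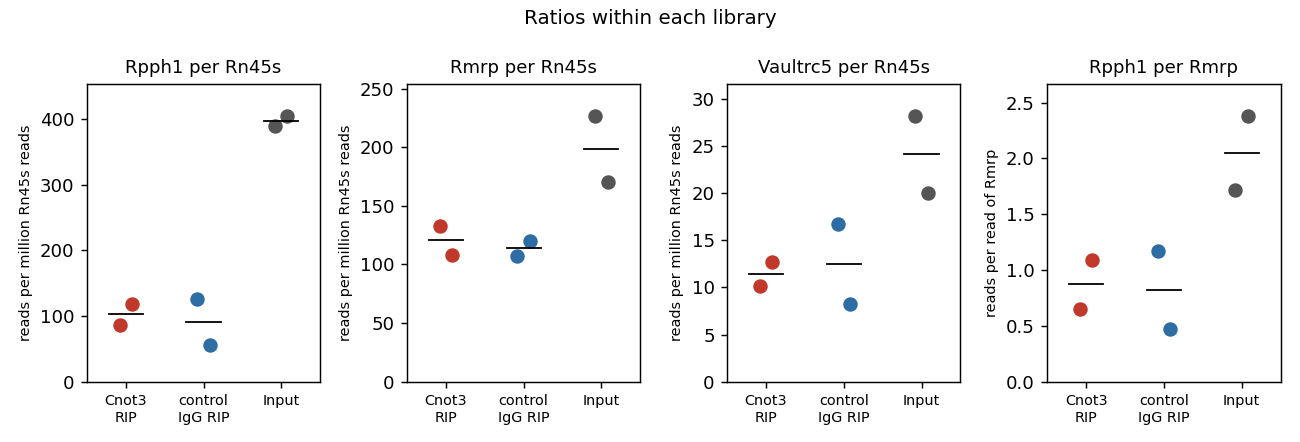
Reads of Rpph1, Rmrp and Vaultrc5 per 1000000 Rn45s reads, and reads of Rpph1 per read of Rmrp, all on linear axes that start at 0, with 1 point per library and a line at the group mean. For Rpph1 per Rn45s the Input libraries (389 and 405) stand clear of Cnot3 RIP (86.6 and 118) and control IgG RIP (126 and 56.2), and the gap is narrower for Rmrp and Vaultrc5.

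As a share of all reads other than Rn45s, the 3 RNAs together took 0.0259% and 0.0250% in the Cnot3 RIP, 0.0378% and 0.0270% in the control IgG RIP and 0.233% and 0.227% in Input. In order of scaled CPM, where rank 1 is the most abundant gene, Rpph1 ranked 1656 and 1339 in the Cnot3 RIP, 538 and 1849 in the control IgG RIP and 43 and 42 in Input. Rmrp ranked 988 and 1487 in the Cnot3 RIP, 664 and 730 in the control IgG RIP and 92 and 144 in Input. Vaultrc5 ranked 7986 and 7174 in the Cnot3 RIP, 4418 and 7826 in the control IgG RIP and 1464 and 1966 in Input.

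Levels of different RNAs can be compared only per length. Per kilobase of the GENCODE length, Rpph1 averaged 122 ± 33.2 scaled CPM in the Cnot3 RIP, 164 ± 117 in the control IgG RIP and 1507 ± 170 in Input (SD, n = 2 each). Rmrp averaged 167 ± 14.8 per kilobase in the Cnot3 RIP, 227 ± 29.9 in the control IgG RIP and 878 ± 105 in Input. In Input the order was therefore Rpph1, then Rmrp, with no overlap of the libraries, while in the control IgG RIP the libraries of the pair overlapped. In the Cnot3 RIP Rmrp was above Rpph1 without overlap. Vaultrc5 averaged 30.2 ± 6.47 per kilobase in the Cnot3 RIP, 50.2 ± 32.9 in the control IgG RIP and 202 ± 31.9 in Input, below the other RNAs in every library. Its length is less sure, and with the 345 bases that RefSeq gives, its mean per kilobase was 12.5 in the Cnot3 RIP, 20.8 in the control IgG RIP and 83.5 in Input. Values per kilobase are approximate for RNAs this short.

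The genome positions come from GENCODE M21 and RefSeq on GRCm38, the assembly also called mm10. Rpph1 (ENSMUSG00000092837.1, annotated as a ribozyme) lies on the minus strand of chromosome 14 at 50807449 to 50807767. Its nearest neighbour Parp2, a DNA repair enzyme, starts 73 bases away in GENCODE and runs in the other direction. Parp2 had 4.56 and 10.7 scaled CPM in the Cnot3 RIP, 4.96 and 4.62 in the control IgG RIP and 3.23 and 3.67 in Input, and the log2 difference of Cnot3 RIP over Input was 0.98 (limma adjusted p = 0.125). Ccnb1ip1, on the other side of Rpph1, had no read in any library. Rpph1 and Parp2 thus had differences of opposite sign.

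Rmrp (ENSMUSG00000088088.1, a ribozyme) lies on the minus strand of chromosome 4 at 43492788 to 43493058. GENCODE models of Ccdc107 on the opposite strand overlap it by 159 bases, while the RefSeq gene starts 280 bases away. The strand setting of the counting is not given in the sources used here, so reads of Rmrp and of an overlapping Ccdc107 transcript cannot be told apart. Ccdc107 was far lower than Rmrp, at 2.78 and 1.68 scaled CPM in the Cnot3 RIP, 2.31 and 2.31 in the control IgG RIP and 2.96 and 3.33 in Input. Its log2 difference of Cnot3 RIP over Input was −0.49 (limma adjusted p = 0.334). Sit1, the neighbour on the other side, had 1 read in 1 Cnot3 RIP library.

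Vaultrc5 (ENSMUSG00000065145.1, annotated as miscellaneous RNA) lies on the plus strand of chromosome 18 at 36801866 to 36802008, with 143 bases in GENCODE. Zmat2, which encodes a zinc finger protein, ends 2102 bases before the RefSeq start of Vaultrc5. It was lower in the Cnot3 RIP than in Input, at 3.67 and 3.0 scaled CPM in the Cnot3 RIP, 4.79 and 4.76 in the control IgG RIP and 10.1 and 8.30 in Input, a log2 difference of −1.40 (SE 0.24, limma adjusted p = 0.0156). The next gene after Vaultrc5, Pcdha1, had 1 read.

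Near copies of the RNase P RNA are a possible source of shared reads. Rprl1 had no read in any library. Rprl2 had 1 read in control IgG RIP replicate 1 and 1 in Input replicate 2, and Rprl3 had 2 and 3 reads in the Input libraries. Against 577 to 10751 reads of Rpph1, the copies held almost none of the reads as counted, and how reads that match both were assigned is not given in the sources used here.

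The profiles closest to each RNA were found by the Euclidean distance between centred log2 levels over the 6 libraries, among 4719 genes with a mean of at least 10 scaled CPM and no placeholder symbol. For Rpph1 the nearest profiles were those of Vaultrc5 (distance 1.39, Pearson r 0.983) and Rmrp (1.93, r 0.960). Then came Ybx1, a Y-box protein that binds mRNA (2.11, r 0.972), Bag1, a cochaperone (2.55, r 0.932), and Mrpl42, a mitochondrial ribosomal protein (2.57, r 0.970). The same 3 genes recur for the other RNAs. For Rmrp the order was Ybx1 (0.429, r 0.991), Bag1 (0.768, r 0.981), Mrpl42 (0.864, r 0.988), Bsg, a membrane glycoprotein (0.931, r 0.984), and Vaultrc5 (0.945, r 0.956). For Vaultrc5 it was Rmrp, Ybx1 (1.09, r 0.954), Rpph1, Mrpl42 (1.49, r 0.939) and Bag1 (1.54, r 0.899). The 6 points of each profile share libraries, depth and scaling, so the distances and r are a description. Rpph1, Rmrp and Vaultrc5 were selected on their levels across these same libraries. Their nearness to each other therefore follows in part from that choice.

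The mRNAs of the protein subunits were described next. Of 11 genes for RNase P and RNase MRP proteins, 10 were tested and none passed in any of the 3 comparisons by limma, edgeR or DESeq2. At an unadjusted limma p under 0.05, 3 were lower in the Cnot3 RIP than in Input and 3 were lower in the control IgG RIP than in Input. At that threshold 0 differed between Cnot3 RIP and control IgG RIP. The share of all genes at that unadjusted threshold is not given, for this list or those that follow. Such counts are therefore not set against a background, and the shares of adjusted calls are no measure for them. Their median log2 difference was −0.48 for Cnot3 RIP over Input, −0.60 for control IgG RIP over Input and 0.01 for Cnot3 RIP over control IgG RIP. With library size as the only scaling, the first of these medians was 0.41 and the second 0.06, while the medians of all genes were then 1.02 and 0.70. The proteins' mRNAs were rare, with group means between 0.597 and 8.28 scaled CPM. Rpp14, the most abundant, had 3.99 and 5.16 scaled CPM in the Cnot3 RIP, 4.04 and 5.03 in the control IgG RIP and 8.40 and 8.16 in Input. Its log2 difference of Cnot3 RIP over Input was −0.83 (limma adjusted p = 0.0702). Pop5 and Pop4, shared subunits and the next most abundant, had −0.71 (limma adjusted p = 0.194) and −0.39 (limma adjusted p = 0.413).

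The vault proteins are Mvp, the shell protein, Parp4, an ADP-ribosyltransferase, and Tep1, a protein shared with telomerase. None of the 3 passed in any comparison by limma or edgeR, and DESeq2 called 1 higher in the control IgG RIP than in Input, as did 1 at an unadjusted limma p under 0.05. Mvp had 15.5 and 16 scaled CPM in the Cnot3 RIP, 21.7 and 16.3 in the control IgG RIP and 14.7 and 14.6 in Input. Parp4 had 25.5 and 27.8 in the Cnot3 RIP, 36.3 and 26.4 in the control IgG RIP and 24.5 and 22.7 in Input. Tep1 had 13.7 and 15.5 in the Cnot3 RIP, 24.8 and 16.3 in the control IgG RIP and 9.33 and 11.4 in Input. All 3 mRNAs had positive log2 differences from Input, with a median of 0.17 in the Cnot3 RIP and 0.39 in the control IgG RIP, where Vaultrc5 had −2.67 and −2.12.

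Of other small structured RNAs, 2 of 8 were tested, and neither passed in any comparison by limma, edgeR or DESeq2. At an unadjusted limma p under 0.05, 1 was lower in the Cnot3 RIP than in Input. Rnu11 and Rnu12, RNAs of the minor spliceosome, had log2 differences of −0.97 (limma adjusted p = 0.110) and −1.36 (limma adjusted p = 0.269) for Cnot3 RIP over Input. Terc, the telomerase RNA, had 2 reads in 1 Input library. Small nucleolar and Cajal body RNAs guide the modification of other RNAs, and 23 of 119 passed the filter. Against Input, 2 of the 23 fell in the Cnot3 RIP (2.47% of all genes were called lower). None rose by limma, edgeR or DESeq2, nor at an unadjusted limma p under 0.05. Snord22 had 3.38 and 3.96 scaled CPM in the Cnot3 RIP, 10.2 and 4.39 in the control IgG RIP and 19.9 and 12.0 in Input, a log2 difference of −2.01 (SE 0.39, limma adjusted p = 0.0210) for Cnot3 RIP over Input. Scarna10 had 8.90 and 11.4 in the Cnot3 RIP, 24.0 and 15.9 in the control IgG RIP and 29.8 and 21 in Input, a log2 difference of −1.29 (SE 0.29, limma adjusted p = 0.0298).

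In control IgG RIP over Input, 0 of the 23 passed by limma, edgeR or DESeq2, with 4 higher and 1 lower at an unadjusted limma p under 0.05. In Cnot3 RIP over control IgG RIP 0 passed by limma or edgeR, DESeq2 called 2 lower, and 11 were lower at an unadjusted limma p under 0.05. The median of the 23 was −0.55 for Cnot3 RIP over Input, 0.19 for control IgG RIP over Input and −0.96 for Cnot3 RIP over control IgG RIP. Snord17, among the most abundant, had 13.9 and 7.97 scaled CPM in the Cnot3 RIP, 23.6 and 22.2 in the control IgG RIP and 24.0 and 13.5 in Input. None of the 23 had a log2 difference from Input as low as those of Rpph1, Rmrp and Vaultrc5, in either precipitate. Those 3 were selected on these levels, so this order follows largely from the choice. Against control IgG RIP the order was the other way, with 19 of the 23 below Vaultrc5, the lowest of the 3. With only the Cnot3 RIP and Input libraries kept, 18 of these small RNAs passed the filter. Some of the 23 thus needed the control IgG RIP libraries to pass. That favours negative values against control IgG RIP in the counts, the median and the order given here.

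RNA polymerase III and its factors transcribe Rpph1, Rmrp and Vaultrc5, and the mRNAs of 29 of 30 listed genes were tested. In Cnot3 RIP over Input 3 rose and 1 fell, where 5.86% of all genes were called higher and 2.47% lower. Of the 29, 5 were higher and 7 lower at an unadjusted limma p under 0.05. Tbp, the TATA-binding protein, had 8.76 and 19.7 scaled CPM in the Cnot3 RIP, 3.17 and 4.03 in the control IgG RIP and 2.86 and 2.41 in Input. Both Cnot3 RIP libraries were above all others, and the log2 difference over Input was 2.22 (limma adjusted p = 0.0135). Bdp1, a subunit of TFIIIB, had 47.6 and 94.0 in the Cnot3 RIP, 36.4 and 27.3 in the control IgG RIP and 24.5 and 22.5 in Input, a log2 difference of 1.50 (SE 0.32, limma adjusted p = 0.0274). Pou2f1, a factor known to bind octamer sites, had 38.8 and 44.1 scaled CPM in the Cnot3 RIP. It had 18.8 and 27.4 in the control IgG RIP and 17.4 and 12.4 in Input. Its log2 difference of Cnot3 RIP over Input was 1.48 (SE 0.27, limma adjusted p = 0.0168). Snapc5, a subunit of the promoter-binding SNAP complex, fell by 1.37 on the log2 scale (SE 0.32, limma adjusted p = 0.0363). The most abundant gene of the list, Gtf3c1, a subunit of TFIIIC, had a log2 difference of 0.33 (limma adjusted p = 0.524).

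Against control IgG RIP 1 of the 29 passed, where 1.54% of all genes were called higher. It was Tbp, with a log2 difference of 1.81 (SE 0.36, limma adjusted p = 0.0449), and it passed with Cnot3 RIP replicate 1 left out (limma adjusted p = 0.00212) but with no other library left out (limma adjusted p between 0.0539 and 0.426). None fell by limma, edgeR or DESeq2, with 3 lower at an unadjusted limma p under 0.05. In control IgG RIP over Input, where 2.58% of all genes were called higher, 2 rose and 0 fell. These were Snapc3 at 1.79 (SE 0.40, limma adjusted p = 0.0449) and Snapc4 at 1.19 (SE 0.25, limma adjusted p = 0.0365), both subunits of the SNAP complex. At an unadjusted limma p under 0.05, 7 of the 29 were lower in that comparison, and edgeR and DESeq2 each called 0 lower. The median of the list was 0.20 for Cnot3 RIP over Input, 0.12 for control IgG RIP over Input and 0.01 for Cnot3 RIP over control IgG RIP, where the median of all genes was 0.06, 0.01 and −0.00.

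**Figure D4:**
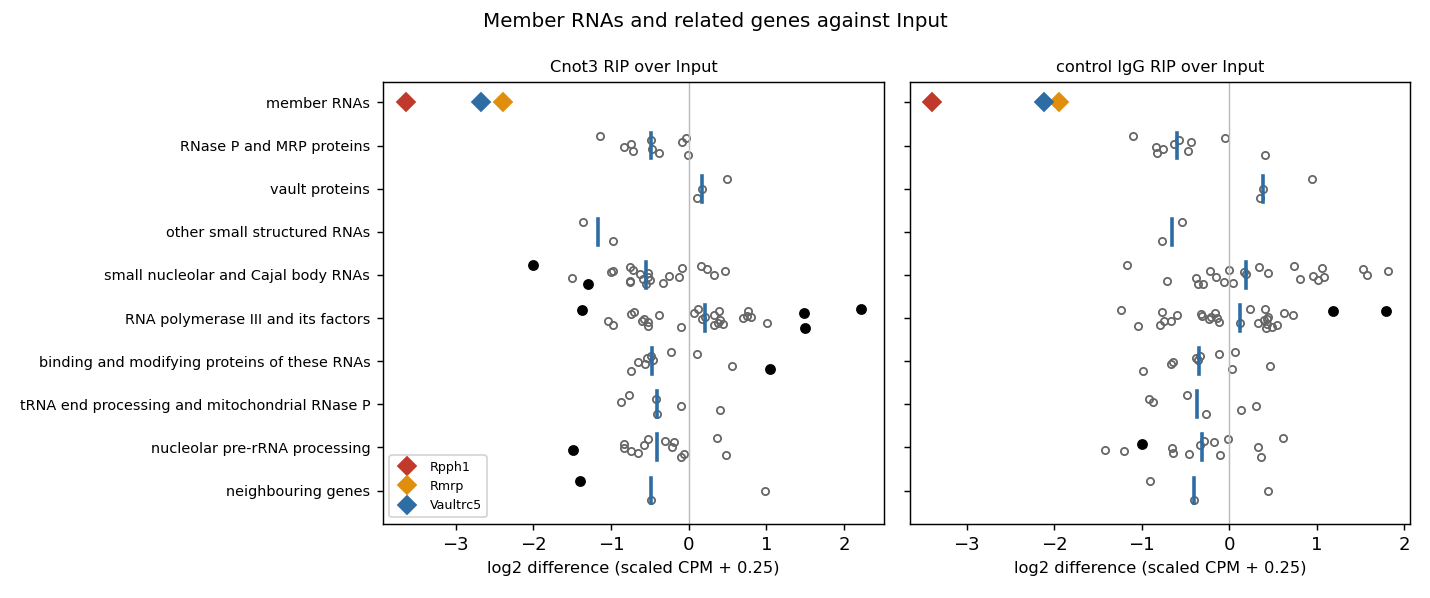
Log2 difference of scaled CPM plus 0.25 over Input for Cnot3 RIP (left) and control IgG RIP (right), with diamonds for Rpph1, Rmrp and Vaultrc5 and circles for the tested genes of each list. Circles are filled where the limma adjusted p is under 0.05, and blue bars mark list medians. The 3 RNAs (−3.64, −2.38 and −2.67 in the Cnot3 RIP) lie left of every circle in both panels. They were selected on these levels, so that order follows largely from the choice. The list labelled as binding and modifying these RNAs holds RNA-binding and RNA-modifying proteins, among them Larp4, which binds poly(A).

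The next list held 10 genes for RNA-binding and RNA-modifying proteins, such as Ssb (the La protein) and Nsun2 (an RNA methyltransferase). Of these, 1 rose in Cnot3 RIP over Input, where 5.86% of all genes were called higher. None fell by limma, edgeR or DESeq2, with 3 lower at an unadjusted limma p under 0.05. The 1 was Larp4, a La-related protein that binds poly(A), with 40.6 and 65.8 scaled CPM in the Cnot3 RIP, 26.6 and 24.4 in the control IgG RIP and 25.7 and 24.4 in Input, a log2 difference of 1.04 (SE 0.26, limma adjusted p = 0.0421). Larp4b, its paralog, had a log2 difference of 0.56 (limma adjusted p = 0.194), and Ncl, the nucleolar protein nucleolin, had −0.65 (limma adjusted p = 0.108). The median of the 10 was −0.47 for Cnot3 RIP over Input, −0.34 for control IgG RIP over Input and 0.05 for Cnot3 RIP over control IgG RIP. Neither of the other comparisons had a limma call. DESeq2 called 1 higher in the Cnot3 RIP than in the control IgG RIP, as did 1 at an unadjusted limma p under 0.05, and edgeR called 0. In control IgG RIP over Input edgeR and DESeq2 called 0, with 3 lower at an unadjusted limma p under 0.05.

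The 6 genes of tRNA end processing and the mitochondrial RNase P, an enzyme without an RNA subunit, had no limma or edgeR call in any comparison. DESeq2 called 1 lower in the Cnot3 RIP than in Input. At an unadjusted limma p under 0.05, 2 were lower than Input in each precipitate and 0 differed between Cnot3 RIP and control IgG RIP. Hsd17b10, a mitochondrial RNase P subunit, was the most abundant, with 15.4 and 10.5 scaled CPM in the Cnot3 RIP, 14.3 and 11.2 in the control IgG RIP and 21 and 26 in Input. Its log2 difference of Cnot3 RIP over Input was −0.87 (limma adjusted p = 0.0739). Elac1 and Elac2, which cut the trailer from tRNA precursors, had 0.40 (limma adjusted p = 0.352) and −0.10 (limma adjusted p = 0.827). The median of the 6 was −0.41 for Cnot3 RIP over Input, −0.37 for control IgG RIP over Input and −0.07 for Cnot3 RIP over control IgG RIP.

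Among 14 tested genes for nucleolar processing of ribosomal RNA precursors, 1 fell in each precipitate against Input. Of all genes, 2.47% were called lower in Cnot3 RIP over Input and 1.49% in control IgG RIP over Input. None rose by limma, edgeR or DESeq2, with 1 higher in the control IgG RIP than in Input at an unadjusted limma p under 0.05. Nol12, a nucleolar RNA-binding protein, fell by 1.49 on the log2 scale in Cnot3 RIP over Input (SE 0.34, limma adjusted p = 0.0344). Npm1, nucleophosmin, had a log2 difference of −1.0 for control IgG RIP over Input (SE 0.23, limma adjusted p = 0.0481) and of −0.83 for Cnot3 RIP over Input (limma adjusted p = 0.0584). Xrn2, a nuclear exonuclease, had 0.36 for Cnot3 RIP over Input (limma adjusted p = 0.374). Between Cnot3 RIP and control IgG RIP none passed by limma, edgeR or DESeq2, and 0 had an unadjusted limma p under 0.05. The median of the 14 was −0.41 for Cnot3 RIP over Input, −0.31 for control IgG RIP over Input and −0.04 for Cnot3 RIP over control IgG RIP. The 6 cardiomyocyte markers had no limma or edgeR call in any comparison. DESeq2 called 1 of them lower in the Cnot3 RIP and 2 lower in the control IgG RIP than in Input, and the counts at an unadjusted limma p under 0.05 were the same.

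Most of these calls were lost when a single library was left out. Of the 9 listed and neighbouring genes called in Cnot3 RIP over Input, 0 passed limma without Input replicate 1 (adjusted p between 0.0584 and 0.170) and 0 without Input replicate 2 (0.0992 to 0.259), with all 9 at an unadjusted p under 0.05 each time. Without Cnot3 RIP replicate 2 only Tbp passed, without replicate 1 all 9 did, and without either control IgG RIP library 7 did, all but Larp4 and Snapc5. Of the 3 genes called in control IgG RIP over Input, Snapc3 alone passed without Input replicate 1. With Input replicate 2, control IgG RIP replicate 1 or control IgG RIP replicate 2 left out, 0 of the 3 passed (limma adjusted p between 0.0956 and 0.284), with all 3 at an unadjusted p under 0.05.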

How the data were processed

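The authors deposited 1 table of CPM per gene symbol for 6 libraries. Per the submitters' processing notes, TopHat2 2.1.0, Bowtie2 2.2.5, edgeR, FastQC and CASAVA 1.8 are the tools named, with the mm10 genome. Not given in the sources used here are the read counter, annotation, library kit and strand setting. The smallest step between low values gave the worth of 1 read (0.0299 to 0.0636 CPM), with which 100% of the values were whole within 0.01 read. TMM factors (edgeR 4.0.16) were computed from these reads, and limma 3.58.1 in R 4.3.3 fitted log2 of scaled CPM plus 0.25 with a trended prior. The fit had 3 group means, no block, and 3 residual and 6.24 prior degrees of freedom. The filter was filterByExpr at a minimum count of 10. P-values were adjusted over 13010 genes by the Benjamini-Hochberg method. They measure only the spread between libraries, which may be technical. Alternatives included DESeq2 1.42.0 and edgeR's quasi-likelihood test on the reads.

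Members and lists were chosen with earlier results of these data known. Named were the 3 RNAs, each listed gene past the threshold, up to 3 of highest level per list, all neighbouring genes and the 5 nearest profiles per RNA. Listed genes with few reads were named after their values were seen.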

Additional observations from a re-analysis of the deposited data

How the results depend on the processing

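All 90 values of Rpph1, Rmrp and Vaultrc5 over Input under 15 alternatives stayed below 0. Of the 135 values of the 3 RNAs in the 3 comparisons, 126 moved by less than the spread between replicates. With 2 libraries a group, leaving out 1 could hardly move a value beyond that spread, and a replicate block left the values unchanged. The 126 are therefore no measure of stability. They include the changes of sign of Rpph1 and Vaultrc5 in Cnot3 RIP over control IgG RIP. With library size as the only scaling the median of all genes rose by 0.96 (Cnot3 RIP over Input), 0.69 (control IgG RIP over Input) and 0.30 (Cnot3 RIP over control IgG RIP), and in Cnot3 RIP over Input the differences were −2.56 for Rpph1, −1.31 for Rmrp and −1.62 for Vaultrc5. Relative to the median of all genes they were then −3.58 for Rpph1 and −2.64 for Vaultrc5. With it Rmrp had −1.19 and Vaultrc5 −1.37 in control IgG RIP over Input, and Rmrp −0.12 and Rpph1 0.07 in Cnot3 RIP over control IgG RIP. Leaving out 1 library gave, for Cnot3 RIP over Input, −3.92 to −3.36 (Rpph1), −2.55 to −2.29 (Rmrp) and −2.89 to −2.46 (Vaultrc5). For control IgG RIP over Input it gave −4.20 to −2.60 (Rpph1), −2.10 to −1.81 (Rmrp) and −2.84 to −1.43 (Vaultrc5), and for Cnot3 RIP over control IgG RIP −1.04 to 0.51 (Rpph1), −0.57 to −0.33 (Rmrp) and −1.24 to 0.11 (Vaultrc5).

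The counts of genes called also moved, and causes were not tested. In Cnot3 RIP over Input, 1083 were called; 548 with no filter, 7759 with library size only (99.9% higher, against 70.4%), 638 with library size without Rn45s, and 12 to 1970 without 1 library. In control IgG RIP over Input, 530 were called; 4393 with library size only (99.8% higher, against 63.4%), 258 with library size without Rn45s, 339 with edgeR, 1002 with only the 2 groups fitted, and 20 to 895 without 1 library. In Cnot3 RIP over control IgG RIP, 236 were called; 35 with no filter, 625 with library size only (94.7% higher, against 84.7%), 735 with DESeq2, 112 with only the 2 groups fitted, and 0 to 1306 without 1 library. The 0, without control IgG RIP replicate 1, stood beside 745 higher and 418 lower genes at an unadjusted limma p under 0.05. Listed genes called in Cnot3 RIP over Input (9) became 5 with no filter, 35 with library size only and 0 to 16 without 1 library. Those in Cnot3 RIP over control IgG RIP (1) became 0 with no filter, 3 with library size only, 5 with DESeq2, 0 with only the 2 groups and 0 to 7 without 1 library. Those in control IgG RIP over Input (3) became 31 with library size only, 0 with library size without Rn45s, 1 with edgeR, 8 with only the 2 groups and 0 to 7 without 1 library.

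The labels do not say that replicate numbers pair libraries, and same-numbered libraries deviated with correlations of −0.317 (Cnot3 RIP and control IgG RIP), 0.339 (Cnot3 RIP and Input) and −0.327 (control IgG RIP and Input). A replicate block gave 385 calls in Cnot3 RIP over control IgG RIP, 325 in control IgG RIP over Input and 1 listed gene there. With the control IgG RIP numbers crossed, a pairing chosen after seeing the data, the block gave 2498 calls in Cnot3 RIP over Input, 1065 over control IgG RIP and 1870 in control IgG RIP over Input.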
